A study of Mus musculus with 6 samples.

Results

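Contractile and mural cell genes of the lung were followed by 9 members in lung tissue of mice given PM or its vehicle. They were taken by gene symbol, in a list drawn up with earlier results of these data known: Acta2, Tagln, Myh11, Cnn1, Des, Actg2 and Lmod1, which serve the contractile apparatus of smooth muscle, and Pdgfrb and Cspg4, which mark pericytes. All 9 of them were present among the 23238 gene symbols of the count tables, and all 9 passed the filter on low counts that left 14057 tested genes. Both groups were wild-type mice dosed by a route given only as i.t., one with PM and the other with phosphate-buffered saline (PBS). The series title calls the exposure chronic. Dose, duration, age, sex and strain are not given in the labels, which also do not spell out PM or say whether each sample is 1 animal. There were 3 tables in each group. PBS replicate 2 repeats the table of PBS replicate 1 entry for entry, so the 2 tables, which differ by less than sampling noise would give, were taken as 1 sample, leaving 2 PBS and 3 PM libraries. P-values therefore measure the spread between these 5 libraries, which may be in part technical.

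Smooth muscle in the lung wraps the conducting airways and the larger vessels. Its force comes from myosin pulling on actin filaments, switched on when calcium activates the kinase that phosphorylates the myosin light chain. The genes of this apparatus are driven largely by serum response factor (SRF) with its partners myocardin and the myocardin-related factors, which act at a DNA element called the CArG box. Pericytes are the mural cells of capillaries. They depend on platelet-derived growth factor (PDGF) from the endothelium acting on the receptor that Pdgfrb encodes, and they also carry the proteoglycan NG2, the product of Cspg4. Fibroblasts can take up Acta2 when they become myofibroblasts, so that Acta2 alone does not name a cell type.

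Total counts ran from 7410200 to 8827202 per library. Lung markers were abundant in all 5 libraries, Sftpc of alveolar type 2 cells at 9232 CPM or more (counts brought to a common library total after TMM scaling). Haemoglobin genes took 5.41% of counts in PBS replicate 1 and 0.632% to 1.82% in the other 4 libraries, and the ribosomal RNA precursor Rn45s took 15.7% to 25.4%. Leaving out Rn45s and the haemoglobin genes gave the same number of called members, 0.

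The CArG element was looked for in the 250 bases upstream of the RefSeq start (GRCm38.p6) of 5 members, Acta2, Cnn1, Des, Lmod1 and Cspg4. Tagln, Myh11, Actg2 and Pdgfrb were not searched. The search was made since Acta2 and Des stood on opposite sides in the comparison that follows. A CArG-like match has a G or C at 1 of the 6 middle bases where the CArG box has only A or T. The strand does not matter for the outer bases of either form, because both read the same on the other strand, and a stretch counts for only 1 of the forms. Acta2 held 2 CArG-like matches and no CArG box, and Cnn1, Des, Lmod1 and Cspg4 held neither. Elements outside these windows were not looked for, and any bearing of the matches on the levels was not tested. The search could not test it, because Acta2 was the only one of the 5 with a higher mean level in PM. Of 32851 promoter windows of that length, 1.47% held a CArG box and 7.25% a CArG-like match. The Acta2 matches are shown with 10 bases on either side, the match in capitals, on the minus strand of chromosome 19. Their capitals begin 84 and 34 bases upstream of the RefSeq start. In the GENCODE M21 model, whose first exon begins farther upstream, both lie inside the first exon.
Acta2, distal match, chr19:34255438-34255467: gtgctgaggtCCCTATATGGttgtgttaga
Acta2, proximal match, chr19:34255388-34255417: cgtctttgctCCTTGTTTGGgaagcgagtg
The Des window, on the plus strand at chr1:75360042-75360291, is shown for contrast and has no capitals because neither form occurs in it.
Des: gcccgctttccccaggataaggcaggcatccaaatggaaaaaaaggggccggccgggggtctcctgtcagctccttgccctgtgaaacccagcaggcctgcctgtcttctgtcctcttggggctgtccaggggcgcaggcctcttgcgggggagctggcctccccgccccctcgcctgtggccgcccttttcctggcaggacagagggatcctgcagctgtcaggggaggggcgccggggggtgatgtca

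Among the 9 genes, 3 separated PM from PBS lung with no overlap between libraries: Acta2 was higher in PM, and Des and Pdgfrb were lower. None of the 9 passed edgeR's quasi-likelihood test at a Benjamini-Hochberg adjusted p below 0.05, where 0.228% of all tested genes did. At an unadjusted p below 0.05, 1 member was higher (7.26% of all tested genes) and 2 were lower (6.05%), again Acta2, Des and Pdgfrb. DESeq2 called 2 of the 9, Acta2 and Des, where it called 2.61% of genes. The 3 PM libraries all exceeded both PBS libraries for 15.5% of tested genes and were all below them for 16.1%, so 1 and 2 of 9 members are near the background shares. The median log2 fold over the members was -0.17, against 0.01 over all tested genes, with 4 members at a positive and 5 at a negative fold. In bulk tissue, fewer cells of a type and less RNA per cell cannot be told apart.

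**Figure D1:**
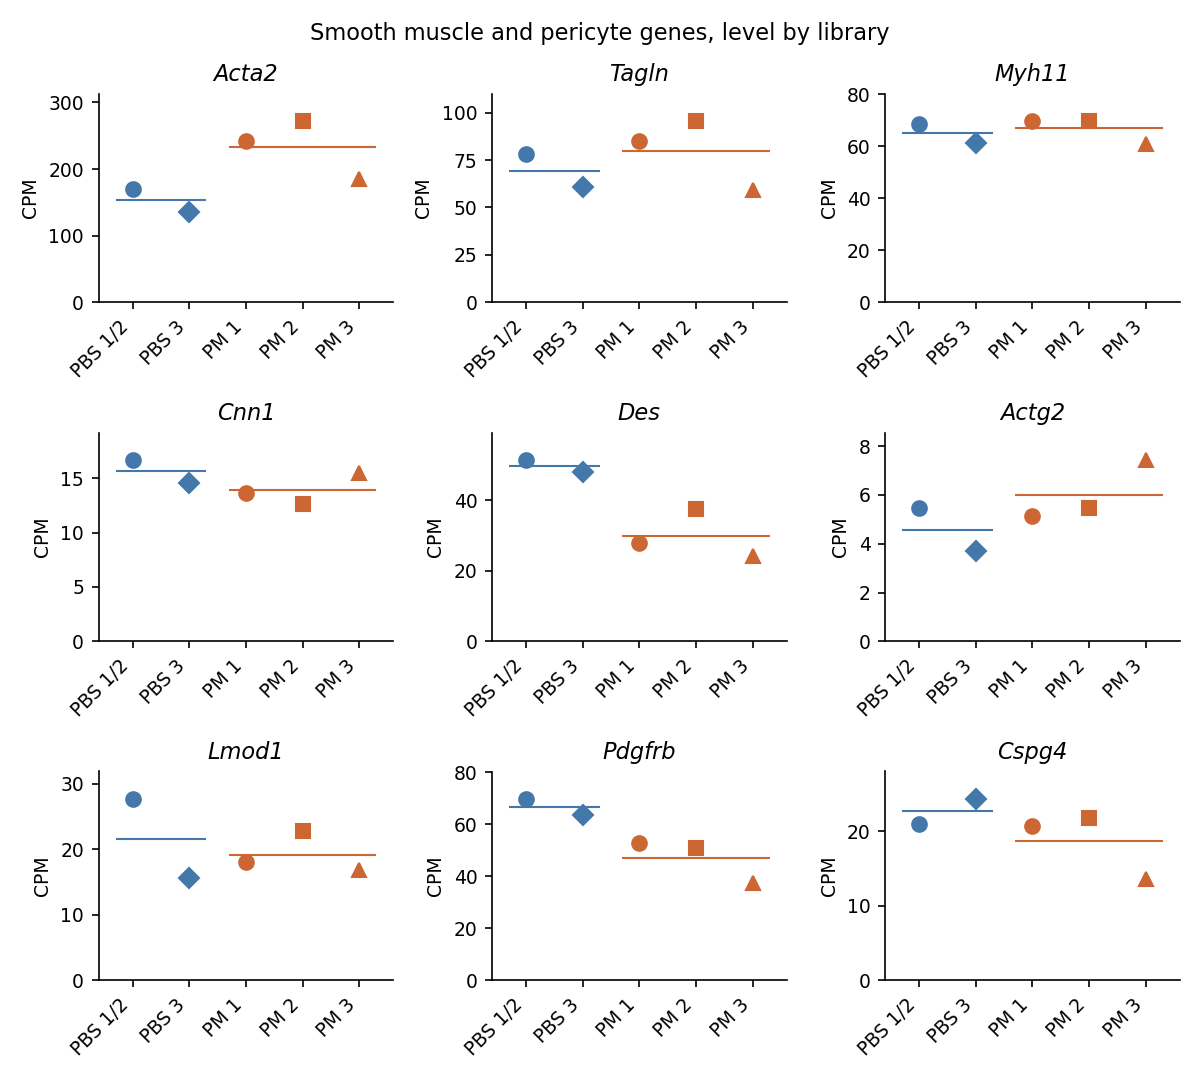
Level of each of the 9 genes in CPM (y axis, from 0) in the 2 distinct PBS libraries (blue) and 3 PM libraries (orange). PBS 1/2 stands for the identical tables of PBS replicates 1 and 2, points are libraries and lines are group means. The PM points lie above both PBS points for Acta2 and below both for Des and Pdgfrb, and the groups overlap for the other 6.

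Acta2 encodes smooth muscle alpha-actin, the main thin filament actin of vascular smooth muscle and of myofibroblasts. PBS replicates 1 and 3 held 1470 and 1097 counts of it, and PM replicates 1, 2 and 3 held 2069, 1901 and 1468. As scaled levels these were 170 and 135 CPM in PBS and 242, 272 and 185 CPM in PM. Every PM library was above both PBS libraries, with PM replicate 2 highest and PM replicate 3 closest to PBS replicate 1. The group levels were 153 ± 24.7 CPM (SD, n = 2) in PBS and 233 ± 44.3 CPM (SD, n = 3) in PM, a log2 fold of 0.61 ± 0.17 SE. The adjusted p was 0.153 in edgeR and 0.0353 in DESeq2. Without PM replicate 3 the log2 fold was 0.75 and the edgeR adjusted p 0.0156. That fit called 3.06% of its genes, against 0.228% with all 5 libraries. The side of the threshold thus changed with the libraries used, and with all 5 it changed with the method. The gene lies on chromosome 19 at 34241090 to 34255590 (GRCm38, GENCODE M21), with 2035 bases of exon.

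Actg2 encodes the gamma-actin of visceral smooth muscle, which is abundant in gut and sparse in lung. It had the fewest counts of the 9: PBS replicates 1 and 3 held 47 and 30, and the PM libraries 44, 38 and 59 in replicate order. The levels were 5.45 and 3.70 CPM in PBS and 5.14, 5.45 and 7.44 CPM in PM. The groups overlapped, with PM replicate 3 highest, the PM library in which Acta2 was lowest. A log2 fold of 0.39 ± 0.36 SE resulted (edgeR adjusted p = 0.694). The actins are close paralogs, yet few stretches of these transcripts are the same: of the 2146 windows of 50 bases in Acta2 transcripts, 7 occur in another gene (Actg1 and actin pseudogenes), and 0 of 1592 do for Actg2. The read length is not given in the sources used here.

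Tagln encodes transgelin (SM22-alpha), an actin-binding protein of smooth muscle. Its counts were 673 and 491 in PBS and 726, 668 and 468 in PM replicates 1, 2 and 3, or 78.0 and 60.6 CPM and 84.9, 95.7 and 59.0 CPM. PM replicates 1 and 2 were the highest libraries, and PM replicate 3 was the lowest of all 5. The log2 fold of 0.20 ± 0.20 SE did not pass (edgeR adjusted p = 0.727). In the GENCODE M21 annotation, exons of Tagln overlap those of Pcsk7, a tested gene on the opposite strand, over 94 bases, and those of the antisense gene Gm48529 over 877 bases. Whether counting used strand is not given in the sources used here, so reads in the stretches that Tagln shares with these genes cannot be told apart.

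Myh11 encodes the smooth muscle myosin heavy chain, the motor of the contractile apparatus and the most specific marker of mature smooth muscle among the 9. It was the steadiest member. Its counts were 592 and 498 in PBS and 598, 487 and 484 in PM, which gave 68.6 and 61.5 CPM in PBS and 69.9, 69.8 and 61.0 CPM in PM. The PM values spanned those of PBS on both sides. The log2 fold was 0.04 ± 0.13 SE (edgeR adjusted p = 0.933). Of its 7644 windows of 50 bases, 26 occur in the non-muscle myosin genes Myh9 or Myh10.

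Cnn1 encodes calponin, an actin-binding inhibitor of myosin's ATPase found in differentiated smooth muscle. Counts were 144 and 118 in PBS and 117, 88 and 123 in PM, or 16.7 and 14.6 CPM against 13.7, 12.6 and 15.5 CPM. PM replicates 1 and 2, the libraries highest in Acta2 and Tagln, were lowest in Cnn1, and PM replicate 3 lay within the PBS range. Its log2 fold was -0.17 ± 0.21 SE (edgeR adjusted p = 0.790).

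Lmod1 encodes leiomodin 1, which nucleates actin filaments in smooth muscle. Its counts were 239 and 126 in PBS and 154, 159 and 133 in PM. The levels were 27.7 and 15.6 CPM in PBS and 18.0, 22.8 and 16.8 CPM in PM, so that all PM libraries lay between the PBS libraries. The fitted log2 fold was -0.18 ± 0.25 SE (edgeR adjusted p = 0.818). Its sign turned to 0.30 without PBS replicate 1.

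Des encodes desmin, the intermediate filament protein of muscle, which ties myofibrils and dense bodies together and is also present in pericytes. Counts were 444 and 388 in PBS and 238, 262 and 192 in PM replicates 1, 2 and 3. The levels were 51.5 and 47.9 CPM in PBS and 27.8, 37.5 and 24.2 CPM in PM. Every PM library lay below both PBS libraries, with PM replicate 2 nearest to them. The group levels were 49.7 ± 2.51 CPM (SD, n = 2) and 29.9 ± 6.90 CPM (SD, n = 3). The log2 fold was -0.74 ± 0.19 SE, a percent change of -40.0, and the largest difference of the 9 in size. The adjusted p was 0.114 in edgeR and 0.0443 in DESeq2. Without PM replicate 2 the log2 fold was -0.93 and the edgeR adjusted p 0.0265, in a fit that called 0.762% of its genes. Des lies on chromosome 1 at 75360329 to 75368579, and its exons overlap those of the antisense gene Gm15179 over 220 bases.

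Desmin is also a protein of cardiac muscle, and the sleeves of pulmonary veins carry such muscle in mice. The summed level of 11 cardiac muscle genes (among them Myh6, Myl7, Tnnt2 and Actc1) came to 750 and 284 CPM for the PBS libraries (replicates 1 and 3). PM replicates 1, 2 and 3 gave 236, 609 and 607 CPM. The groups overlapped in this sum, and none of the 11 was at 0 counts in all libraries. The part of cardiac muscle in the level of Des was not tested. The skeletal muscle genes gave sums of 9.14 to 20.2 CPM in PBS and 8.88 to 17.2 CPM in PM over 10 genes, 4 of which were tested, with 0 called.

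**Figure D2:**
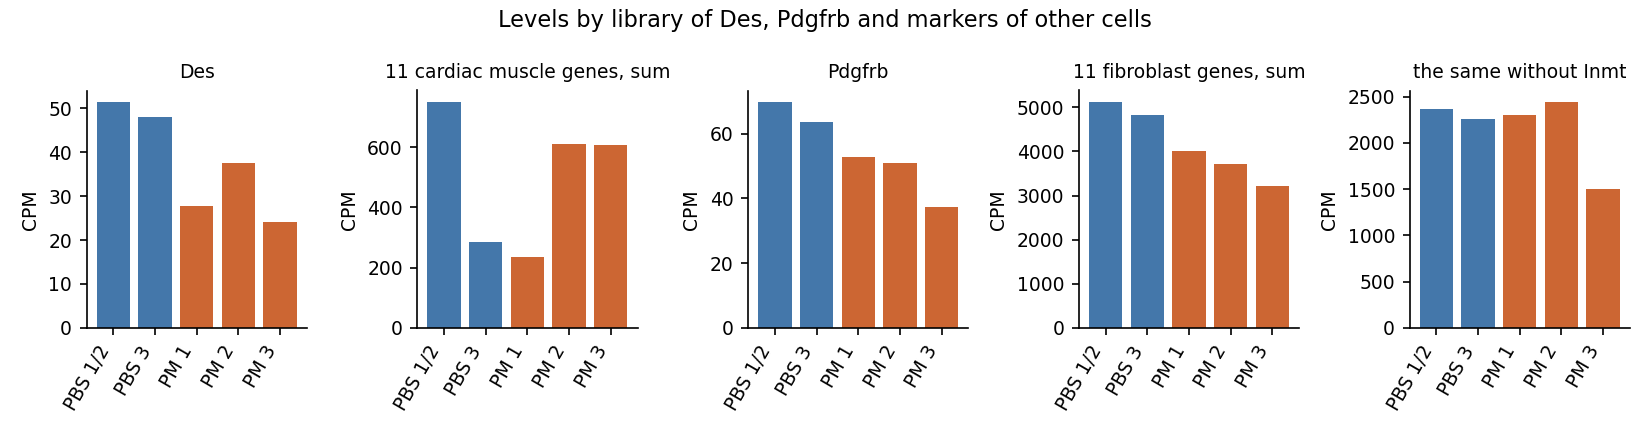
Bars from 0 show CPM per library for Des, the sum of 11 cardiac muscle genes, Pdgfrb, the sum of 11 fibroblast genes and that sum without Inmt, with PBS in blue and PM in orange. Des, Pdgfrb and the sum of 11 fibroblast genes are lower in all 3 PM libraries, whereas the cardiac sum and the fibroblast sum without Inmt overlap between groups.

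Pdgfrb encodes PDGF receptor beta, through which endothelial PDGF recruits and keeps pericytes and vascular smooth muscle cells. Fibroblasts carry it as well. Its counts were 603 and 516 in PBS and 453, 356 and 297 in PM replicates 1, 2 and 3, or 69.9 and 63.7 CPM against 52.9, 51.0 and 37.5 CPM. All PM libraries lay below both PBS libraries, PM replicate 3 the farthest. The group levels were 66.8 ± 4.36 CPM (SD, n = 2) in PBS and 47.1 ± 8.44 CPM (SD, n = 3) in PM. This is a log2 fold of -0.50 ± 0.16 SE, for which edgeR gave an adjusted p = 0.194 and DESeq2 an adjusted p = 0.193. Pdgfrb lies on chromosome 18 at 61045150 to 61085061.

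Cspg4 encodes the NG2 proteoglycan, which marks pericytes and immature smooth muscle, and outside the lung also glial precursors. Counts were 181 and 197 in PBS and 177, 152 and 108 in PM, or 21.0 and 24.3 CPM against 20.7, 21.8 and 13.6 CPM. PM replicates 1 and 2 were close to PBS replicate 1, and PM replicate 3 was the lowest library, as for Pdgfrb. The log2 fold was -0.28 ± 0.22 SE (edgeR adjusted p = 0.635), and -0.09 without PM replicate 3.

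**Figure D3:**
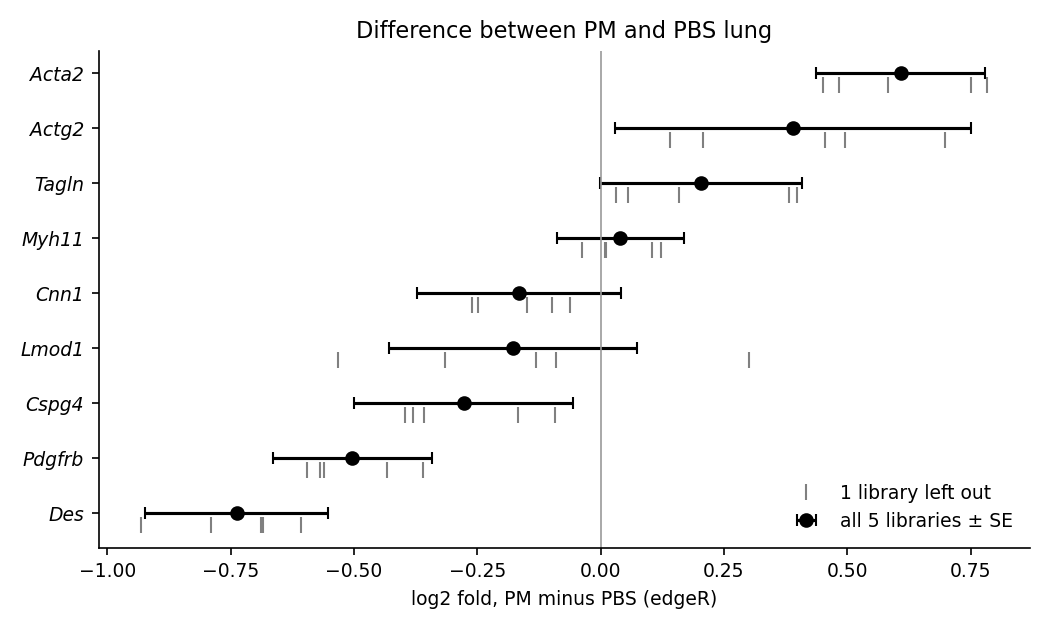
Log2 fold of PM minus PBS by edgeR for each member (points, bars are SE), ordered by fold, with the folds after leaving out each library in turn as grey ticks. The folds of Acta2, Tagln and Actg2 stay positive in all of these, and those of Des, Pdgfrb, Cnn1 and Cspg4 stay negative. Those of Myh11 and Lmod1 take either sign.

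Compared per length of exon, which allows genes to be set side by side, Acta2 was the most abundant member, with a mean level of 98.8 CPM per kb (range 66.6 to 134 over the 5 libraries). Tagln followed at 47.4 CPM per kb (37.0 to 60.02), and the ranges of these 2 did not overlap. Des at 12.5, Pdgfrb at 10.04 and Myh11 at 10.01 CPM per kb came next, and the ranges of neighbours in this trio overlapped. Myh11 was above Cnn1, at 5.80 CPM per kb, in all 5 libraries. Cnn1, Lmod1 (5.11), Actg2 (3.98) and Cspg4 (2.50) ended the order, each overlapping its neighbour in range. Des was above Pdgfrb in 4 of 5 libraries.

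Ratios of counts within a library do not depend on scaling between libraries, and those of Acta2, Des and Pdgfrb to Myh11 separated PM from PBS. Myh11 was nearly flat between groups (log2 fold 0.04), so these ratios largely repeat the separations of the same 3 genes in CPM. The share of all tested genes whose ratio to Myh11 separates the groups was not computed. For every count of Myh11 PBS replicates 1 and 3 held 2.48 and 2.20 counts of Acta2, and the PM libraries 3.46, 3.90 and 3.03 in replicate order. The ratio was higher in all PM libraries, with means of 2.34 ± 0.198 (SD, n = 2) and 3.47 ± 0.435 (SD, n = 3). The ratio of Acta2 to Tagln was 2.18 and 2.23 in PBS and 2.85, 2.85 and 3.14 in PM, also without overlap, although Tagln alone overlapped between groups. Des per count of Myh11 was 0.750 and 0.779 in PBS and 0.398, 0.538 and 0.397 in PM. Pdgfrb per count of Myh11 was 1.02 and 1.04 in PBS and 0.758, 0.731 and 0.614 in PM. The widest split was that of Acta2 to Des, at 3.31 and 2.83 in PBS and 8.69, 7.26 and 7.65 in PM. This was a 2.56-fold difference between geometric means. Acta2 had the highest and Des the lowest log2 fold of the 9, so a wide split follows from their single levels. The ratios of Tagln, Myh11, Cnn1, Actg2, Lmod1, Pdgfrb and Cspg4 to Des were also higher in all PM libraries. The ratios of Tagln, Cnn1, Lmod1, Actg2 and Cspg4 to Myh11 overlapped between groups. With 2 libraries against 3, the smallest two-sided p an exact permutation test of a single ratio can give is 0.2, so none was run.

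**Figure D4:**
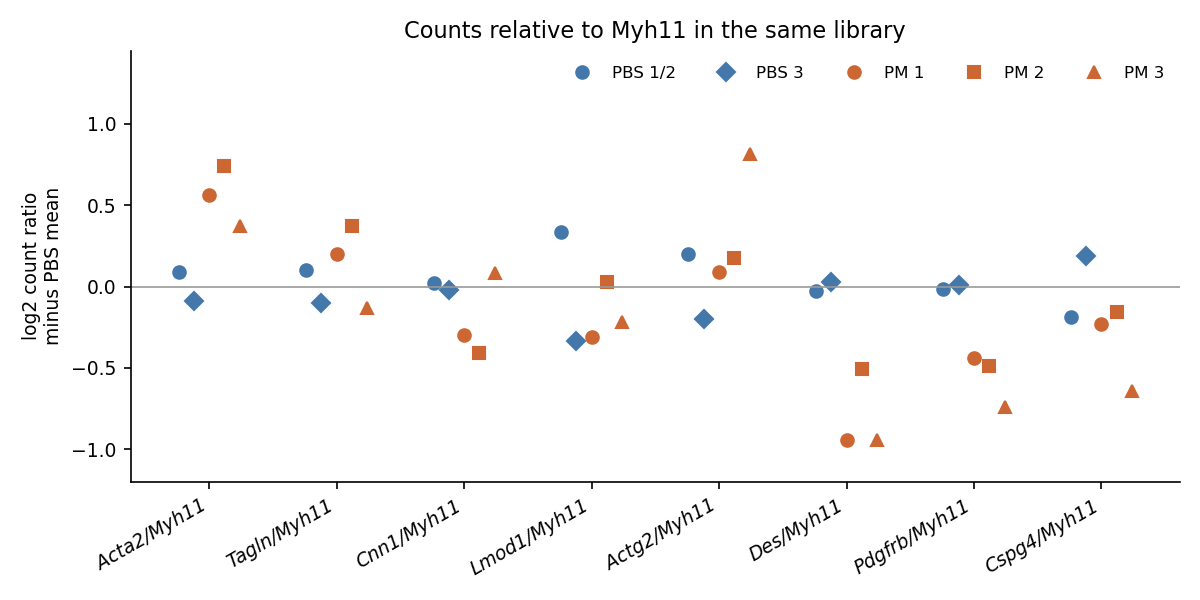
Log2 ratio of each member's count to the Myh11 count of the same library, minus the mean of the PBS libraries (y axis), for PBS (blue) and PM (orange) libraries. All 3 PM points lie above both PBS points for Acta2 and below both for Des and Pdgfrb, and the groups overlap for the other 5 ratios.

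The members also differed in how the PM libraries were ordered. PM replicate 2 had the highest PM level of Acta2, Tagln, Des, Lmod1 and Cspg4, and the lowest of Cnn1. PM replicate 3 had the lowest PM level of Acta2, Tagln, Myh11, Des, Lmod1, Pdgfrb and Cspg4, and the highest of Cnn1 and Actg2. Over the 5 libraries, the centred log2 profile averaged over the 7 contractile members spanned 0.35 from lowest to highest, an average in which members of opposite direction offset each other. Of 8999 other named genes at 10 CPM or more, the 10 closest to that averaged profile were Cebpzos, Deb1, Tanc2, Acot13, Sec61g, Sidt2, Dstn, Zfp687, Ubqln4 and Eif2b5. Their root mean square differences from it were 0.0236 to 0.0409 on the log2(CPM + 0.5) scale. Dstn encodes destrin, which severs actin filaments. The likeness is over 5 libraries of a nearly flat profile and is a description only.

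Beside the 9 members, 7 lists of 82 related genes were examined: contractile cytoskeleton, regulators, receptors and channels, other pericyte genes, PDGF genes, fibroblast markers and myofibroblast genes. Of 79 tested genes 1 passed the edgeR test, the fibroblast gene Wnt2, and 0 of the 60 in the first 5 lists did. DESeq2 called 7 of the 79, where it called 2.61% of genes. They were Mylk, Synm, Gucy1a3, Angpt1, Pdgfra, Wnt2 and Inmt, all at negative folds. In the paragraphs on these lists, a gene is said to pass by the edgeR test only. All PM libraries lay below PBS for 31 of the 79 (39.2%, against 16.1% of all tested genes) and above PBS for 4 (5.06%, against 15.5%). The same shares of all tested genes, 16.1% below and 15.5% above, are the background for the counts of single lists that follow. The median log2 fold was -0.20. At an unadjusted p below 0.05, 23 of the 79 were lower (6.05% of all tested genes) and 2 higher (7.26%). Among the 60, PM lay below PBS for 23 and above for 4, with a median of -0.19. Genes of one list are not independent of each other, and the lists were chosen with earlier results of these data known.

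**Figure D5:**
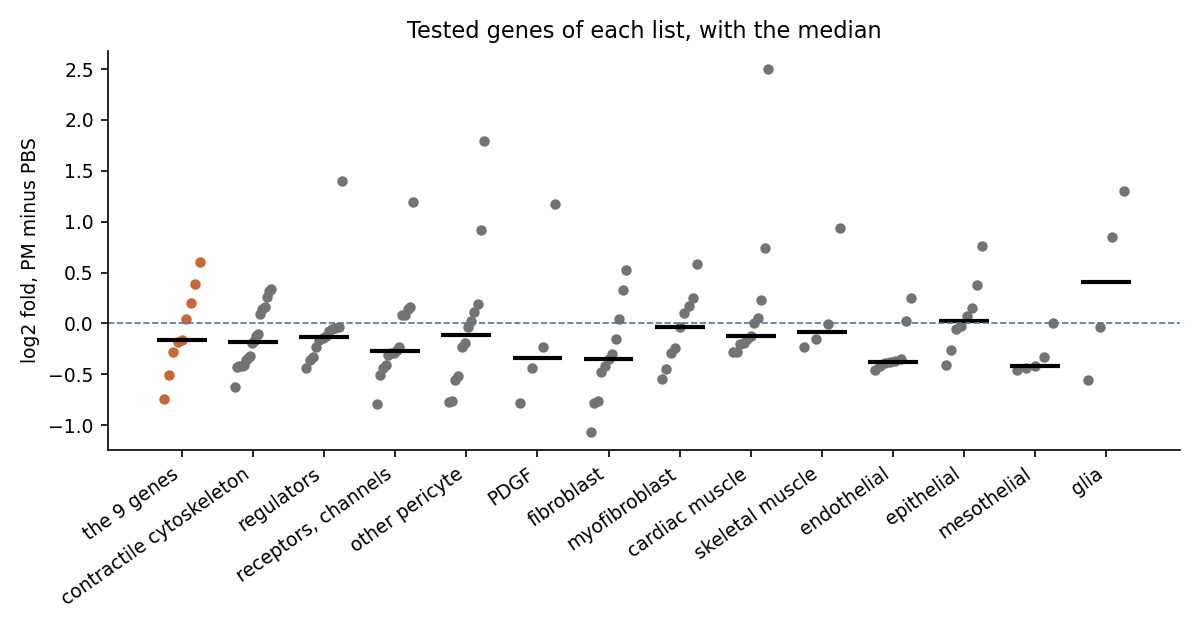
Log2 fold of PM minus PBS for every tested gene of the 9 members (orange), of the 7 related lists and of 6 marker lists (grey), with the median of each as a black bar and the median of all tested genes as a dashed line. The medians run from -0.42 for mesothelial to 0.41 for glial genes, and those of epithelial (0.03) and glial genes are the 2 above the dashed line at 0.01.

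In the contractile cytoskeleton, 0 of 18 tested genes passed, with PM below PBS for 8 and above for 1 and a median log2 fold of -0.18. Synm encodes synemin, an intermediate filament protein that partners desmin. Its mean was 162 ± 27.6 CPM (SD, n = 2) for PBS and 105 ± 13.7 CPM (SD, n = 3) for PM, a log2 fold of -0.62 ± 0.14 SE (edgeR adjusted p = 0.0901), with no overlap, as for Des. Mylk, the kinase that phosphorylates the myosin light chain, had a level of 696 ± 6.64 CPM in PBS and 517 ± 50.3 CPM in PM, again without overlap (log2 fold -0.43). Cald1, the actin-binding caldesmon, had a log2 fold of -0.34, also without overlap. The actin crosslinker Flna was at a positive log2 fold of 0.34 with overlapping groups.

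Regulators of the program had a median log2 fold of -0.13, and 0 of 12 tested genes passed. Myocd, which encodes the SRF partner myocardin, had few counts, 17 and 16 in PBS and 49, 37 and 37 in PM. Its levels of 1.97 ± 0.00398 CPM (SD, n = 2) and 5.23 ± 0.534 CPM (SD, n = 3) did not overlap, and the log2 fold was 1.40 ± 0.41 SE (edgeR adjusted p = 0.158). The related factor Mkl2 stood on the other side, at a log2 fold of -0.43 with PM below PBS in all libraries. Rhoa, Rock1 and Rock2, which raise contractility by keeping the myosin light chain phosphorylated, had log2 folds of -0.04, -0.06 and -0.12.

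Receptors, channels and the cGMP relaxation pathway had a median log2 fold of -0.27, which was -0.04 without PBS replicate 3. In that list 0 of 14 tested genes passed, PM lay below PBS for 7 and above for 0. Gucy1a3, a subunit of the nitric oxide receptor guanylate cyclase, averaged 194 ± 11.9 CPM (SD, n = 2) for PBS against 112 ± 21.3 CPM (SD, n = 3) for PM. Its log2 fold was -0.79 ± 0.15 SE (edgeR adjusted p = 0.0530). Pde5a, which breaks down cGMP, had a log2 fold of -0.43, and the endothelin receptor Ednra of -0.23, both without overlap. The potassium channel Kcnma1 had 3 to 36 counts per library, and its log2 fold of 1.20 ± 0.95 SE came with overlapping groups.

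The other pericyte genes were split. Of 12 tested genes 0 passed, PM was below PBS for 3 and above for 1, and the median log2 fold was -0.11. Angpt1, the angiopoietin that mural and stromal cells send to the endothelial receptor Tie2, averaged 191 ± 8.33 CPM (SD, n = 2) for PBS against 112 ± 17.2 CPM (SD, n = 3) for PM (log2 fold -0.77 ± 0.14 SE, edgeR adjusted p = 0.0525). Kcnj8, a potassium channel subunit of pericytes, was on the other side at a log2 fold of 1.80, with 3 and 11 counts in PBS and 27, 29 and 13 in PM. That fold was 3.04 without PBS replicate 3 and 1.12 without PBS replicate 1. Mcam and Higd1b, at log2 folds of -0.03 and -0.23, overlapped between groups.

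The PDGF ligands, not all of which act on the Pdgfrb receptor, and its sister receptor were examined beside it. Pdgfb, the ligand from endothelium, had levels of 158 ± 5.67 CPM (SD, n = 2) in PBS and 117 ± 19.9 CPM (SD, n = 3) in PM, without overlap (log2 fold -0.44 ± 0.14 SE). Pdgfra, the sister receptor found on lung fibroblasts, averaged 165 ± 7.13 CPM for PBS against 95.8 ± 15.3 CPM for PM (log2 fold -0.78, edgeR adjusted p = 0.0525). Pdgfa was at a log2 fold of -0.23 with overlap, and Pdgfc, with 7 to 24 counts per library, at 1.18. None of the 4 tested genes passed. Pdgfd, with 2 to 8 counts per library, was not tested.

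Of the markers of other stromal and vessel cells, 1 of 11 fibroblast and 0 of 8 endothelial genes passed the test. Fibroblast genes had a median log2 fold of -0.35, and 1 of 11 tested genes passed the edgeR test, the Wnt ligand Wnt2. Its level was 35.3 ± 0.698 CPM in PBS and 16.9 ± 2.11 CPM in PM (log2 fold -1.06, edgeR adjusted p = 0.0379). That call was lost without PBS replicate 1, PBS replicate 3 or PM replicate 1 (adjusted p = 0.444, 0.266 and 0.0813). PM lay below PBS for 6 of the 11 (16.1% of all tested genes). DESeq2 called 3 of the 11 lower, Wnt2, Pdgfra and Inmt, where it called 2.61% of genes. Inmt had a log2 fold of -0.76, with an adjusted p of 0.0530 in edgeR and 1.46e-04 in DESeq2. The summed level of the 11 was 4824 to 5123 CPM in PBS and 3209 to 4018 CPM in PM, of which Inmt alone took 2661 and 1566 CPM on average. Without Inmt the other 10 summed to 2370 and 2255 CPM for the PBS libraries and to 2296, 2443 and 1498 CPM for PM replicates 1, 2 and 3, so that the groups overlapped. Npnt had a log2 fold of -0.35, whereas Col1a2 and Lum were at 0.04 and 0.53 with overlap. Endothelial markers had a median log2 fold of -0.38 over 8 tested genes, 6 of them with PM below PBS (16.1% of all tested genes). Their sum was 2225 to 2425 CPM in PBS and 1687 to 1963 CPM in PM. No marker of either list was at 0 counts in all libraries. The part of these cells in the lower levels of Pdgfrb was not tested.

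Myofibroblast genes were examined because Acta2 is also a gene of these cells. Their median log2 fold was -0.03, with 0 of 9 tested genes past the test, PM below PBS for 3 and above for 0. The summed level was 215 to 223 CPM in PBS and 189 to 231 CPM in PM, with overlap. Postn, a matrix protein, and Fgf18 had log2 folds of -0.45 and -0.55 without overlap. Hhip (0.25), Mustn1 (-0.24) and Tnc (0.58), a matrix glycoprotein of injured tissue, overlapped, and Lgr6 had too few counts to be tested. The summed markers of epithelium (36215 to 50202 CPM in PM, 38619 to 41034 CPM in PBS) and of glia (15.4 to 21.6 CPM in PM, 14.9 to 16.8 CPM in PBS) overlapped between groups, the epithelial sum being mostly Scgb1a1 and Sftpc. Single epithelial markers, named after their values were seen, did not all overlap. Ager, a gene of alveolar type 1 cells, was below PBS in all PM libraries (log2 fold -0.41), with an adjusted p of 0.147 in edgeR and 0.0120 in DESeq2. Hopx, of the same cells, was likewise below PBS in all PM libraries (log2 fold -0.26, edgeR adjusted p = 0.379), and Epcam, a general epithelial marker, was above (0.37, edgeR adjusted p = 0.219). Mesothelial markers summed to 121 to 143 CPM in PBS and 99.9 to 119 CPM in PM, without overlap.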

How the data were processed

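The authors deposited raw counts of reads per gene symbol for 6 lung samples, as whole numbers without normalization. RNA extraction used an easy-BLUE kit and library preparation a SENSE mRNA-Seq kit, per the labels' protocols. TopHat, Cufflinks and mm10 are named per the submitters' processing notes; the counting program, versions, annotation and use of strand were not given in the sources used here. An entry with no gene name held no count. Of 79 entries that shared a symbol, the one with the highest total was kept, which set aside 44.

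The identical tables of PBS replicates 1 and 2 were counted once. Counts were filtered with filterByExpr, scaled by TMM and compared with edgeR 4.0.16 (R 4.3.3), by a two-sided robust quasi-likelihood test with Benjamini-Hochberg adjustment over all 14057 tested genes; the SE is the log2 fold divided by the square root of F. The procedure was tested on simulated data. DESeq2 1.42.0, limma-voom (limma 3.58.1), other scaling and filters, each library left out, the replicate number as a block and all 6 tables were alternatives. The members and lists were chosen with earlier results of these data known, and the split into 7 related and 6 marker lists was made after the fits were seen. All members were described. From each of the 7 related lists the text names every called gene, the 3 with the highest mean level and those with the largest and smallest fold. The other 6 lists, with 47 genes, are given as sums, and for 4 genes an older symbol was used. Exon lengths and coordinates are from GENCODE M21 (GRCm38, the assembly of mm10). Promoter windows are from RefSeq (GRCm38.p6).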

Additional observations from a re-analysis of the deposited data

How the results depend on the processing

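The number of members called, 0, became 1 with no low-count filter (Des), 1 with all 6 tables as deposited (Des), 2 with DESeq2 (Acta2 and Des), and 0 to 1 when single libraries were left out (Des without PM replicate 2, Acta2 without PM replicate 3). The labels do not say whether equal replicate numbers mark pairs. Deviations from the group means correlated at -0.0276 for number 1 and 0.0691 for number 3 across 13990 genes, and at 0.0873 for PBS replicate 1 with PM replicate 2. With 2 PBS libraries, the deviations of one mirror those of the other, so these correlations cannot decide it. With the replicate number as a block, 3 members (Acta2, Des and Pdgfrb), 353 genes in all and 6 genes of the related lists were called. In that fit PM replicate 2 has no PBS library of its number, so the folds rest on numbers 1 and 3. The log2 fold of Des was -0.93 there, as it was without PM replicate 2. With the identical PBS tables as number 2, an alternative added after seeing the data, the block gave 1 member (Acta2), 364 genes and 8 related genes. In this form PM replicate 1 has no PBS library of its number. The count of all called genes, 32, was 275 with no low-count filter, 635 with all 6 tables, 370 with DESeq2 and 1 to 427 with single libraries left out. The count over the related lists, 1, was 6, 9 and 7 under the same 3 settings and 0 to 6 with single libraries left out. The all-tables fit counts 1 library as 2 and so understates the spread. Why the number of calls shifted under the other settings was not tested. Over 13 alternatives the log2 folds ran from 0.45 to 0.78 for Acta2, -0.93 to -0.61 for Des and -0.61 to -0.36 for Pdgfrb.

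Signs turned with single libraries left out for Myh11 (-0.038 to 0.12), Lmod1 (-0.53 to 0.30), Col1a2 (-0.12 to 0.25), Mcam (-0.076 to 0.014), Pdgfa (-0.52 to 0.12) and Rhoa (-0.13 to 0.067). They also turned for Col1a2 with the replicate block in its 2 forms (-0.16 and -0.089) and by limma-voom (-0.0028), and for Kcnma1 with the block (-0.014). Of 91 list medians under these alternatives, 13 moved by more than the spread between PM libraries. With single libraries left out the median was -0.31 to -0.04 for receptors and channels, -0.22 to -0.12 for the contractile cytoskeleton, -0.20 to -0.05 for regulators and -0.30 to 0.05 for myofibroblast genes. Counts of Actg2, Myocd, Kcnj8, Kcnma1 and Pdgfc limit the precision of their folds.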
